A study of Chlamydomonas reinhardtii with 4 samples.

Results

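Transcript levels were compared between 2 libraries of the green alga Chlamydomonas reinhardtii, both from cells exposed to silver nanoparticles (AgNPs), one taken after 12 h and one after 2 h of exposure. All cells of the study were wild-type strain FACHB-1121, grown in TAP medium, an acetate-containing medium, under illumination with agitation, and the exposed cultures received AgNPs at 0.5 mg/L. The study held 4 libraries in all, 1 for each of 4 groups, the other 2 being untreated cells taken at 2 h and at 12 h. Of the 17741 genes in the tables, 3411 had a mean of at least 5 FPKM (fragments per kilobase of transcript and per mapped fragment total, a level corrected for length and library size) over the 2 exposed libraries and were compared. They were chosen by that level alone.

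Each difference is the log2 ratio of FPKM + 1, 12 h over 2 h, minus that of the median gene. The added 1 understates the differences of low genes. There was 1 library per group, so no difference could be set against an error, no test was run, and every value below describes 2 libraries. A gene was counted as higher or lower when the ratio so centred was at least 2-fold. The median gene itself was 0.22 higher on the log2 scale at 12 h before centring. FPKM gave no read counts, so depth is unknown. The spacing of values under 0.2 FPKM, where 1 fragment sets the step, differed between the 2 libraries. Read as depth alone, it would put the 12 h library at 0.633 of the 2 h library. That ratio was shared by 20.9% of the 1279 low genes within 0.05 on the log2 scale. The step also depends on the library scaling, which was not given, so it does not settle the depth. In a bulk culture, more cells expressing a gene and more RNA per cell cannot be told apart.

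Chlamydomonas is a unicellular alga that makes chlorophyll from glutamate through the tetrapyrrole pathway, part of which it shares with heme, and makes the phytol tail of chlorophyll and the carotenoids from plastid isoprenoids. It swims with a pair of cilia, which are built by intraflagellar transport and beat by means of axonemal dyneins. With acetate as a carbon source it can respire as well as photosynthesise. Silver ions are known to interfere with the handling of copper, the metal of plastocyanin in photosynthetic electron transport.

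At 12 h the exposed cells held far less transcript for pigment synthesis, and more for cilia. In all 395 genes were higher (11.6% of those compared) and 410 were lower (12.0%), and differences of at least 4-fold were found for 82 and 39. This split depends on the scaling, with 597 higher and 253 lower as deposited without centring, and 299 and 538 after scaling both libraries to equal sums. The quartiles of all compared genes lay at -0.57 and 0.55 on the centred log2 scale, on which the median gene is 0. Of the higher genes 147 were under 5 FPKM at 2 h and passed the level filter through the 12 h library, and 150 of the lower genes passed through the 2 h library. Among the 452 genes with a mean of 4 to 5 FPKM, just outside the filter, 32 would have been higher and 57 lower, against 43 and 58 of the 397 genes at 5 to 6 FPKM, just inside it. Genes with a symbol were more often lower (198 of 1185, against 96 higher), and genes known by an identifier alone were more often higher (299 of 2226, against 212 lower).

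**Figure D1:**
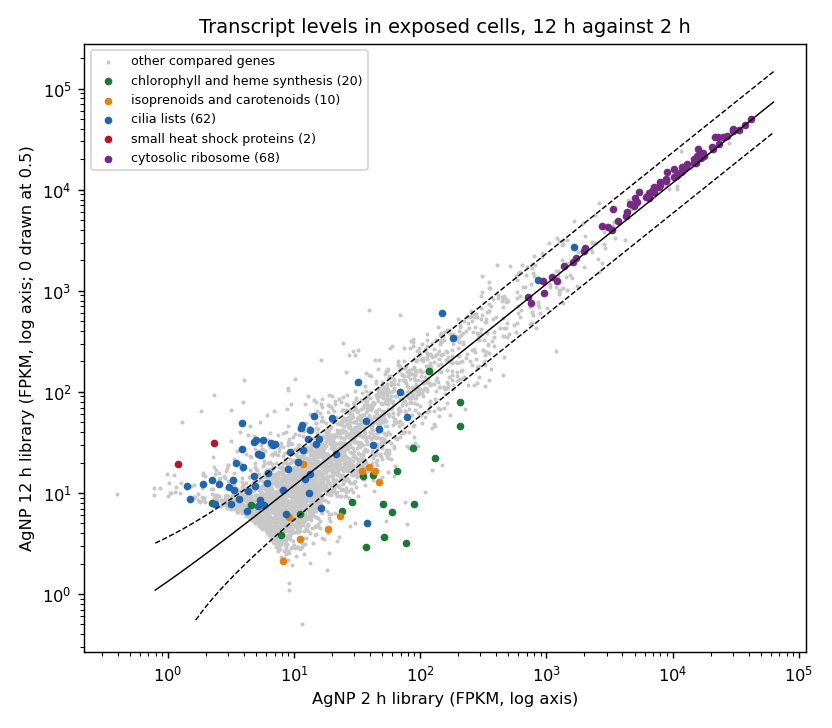
FPKM in the 12 h library against the 2 h library of exposed cells, both on log axes, each point 1 of 3411 genes. The solid line is the median ratio of FPKM + 1, curved at low levels by the added 1, and the dashed lines are 2-fold either side of it. Most pigment synthesis genes lie below the lower line, many cilia genes above the upper one, and the 68 cytosolic ribosomal protein genes along the median.

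Chlorophyll synthesis was lower at 12 h at every step measured. All 10 genes of the magnesium branch were lower at 12 h, against 12.0% of all compared genes, with a median centred log2 ratio of -2.27, and each was also lower in untreated cells. Subunits of magnesium chelatase, which inserts the magnesium ion, its activator and protochlorophyllide reductase differed most. CHLD stood at 51.6 FPKM at 2 h and 3.66 at 12 h, CHLI1 at 59.5 and 6.41, and the activator GUN4 at 36.9 and 2.89. The second chelatase gene CHLI2 differed less, from 87.3 to 28.0 FPKM. POR1, which encodes the light-dependent protochlorophyllide reductase, stood at 89.6 and 7.86 FPKM, a centred log2 ratio of -3.58. The other late steps differed less. Chlorophyll synthase (CHLG) stood at 28.9 and 8.19 FPKM, chlorophyllide a oxygenase (CAO1), which makes chlorophyll b, at 42.3 and 14.99, and the divinyl reductase DVR1 at 34.9 and 14.8. The 2 cyclase genes stood apart in level but not in ratio, with CRD1 at 207 and 45.9 FPKM and CTH1 at 65.9 and 16.4.

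Among the common steps of tetrapyrrole and heme synthesis 6 of 10 compared genes were lower and 1 was higher, with a median of -1.32. CPX1, the coproporphyrinogen oxidase gene (Cre02.g085450, chromosome 2, 1646979 to 1650920, assembly v5.5), had the lowest ratio of all 3411 genes, -4.42, while its counterpart CPX2 stood at 11.2 and 6.24 FPKM, just under 2-fold. HEM1, which encodes glutamyl-tRNA reductase at the entry of the pathway, stood at 50.5 FPKM at 2 h and 7.70 at 12 h. These levels were several-fold apart, as were those of the next enzymes. GSA1 (glutamate-1-semialdehyde aminotransferase) stood at 131 and 22.2, and ALAD1 (aminolevulinate dehydratase) at 205 and 80.2. PPX1, protoporphyrinogen oxidase, stood at 23.9 and 6.59 FPKM. UPD1, a uroporphyrinogen decarboxylase gene that the list did not hold, was also among the 15 lowest genes with a symbol (75.9 and 8.22 FPKM). Of genes that break down heme or lead away from chlorophyll, HMO1, HMO2 and UPM1 were not among the lower ones. The heme oxygenase gene HMO1 stood at 116 and 161 FPKM, HMO2, the 1 higher gene, at 2.25 and 8.02, and the siroheme enzyme UPM1 at 4.53 and 7.63. HMO2 and UPM1 were under 5 FPKM at 2 h and entered through the 12 h library, which fixed their direction. Only HMO1 of these could thus have been lower. With a pseudocount of 5 the list held 0 higher genes.

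Plastid isoprenoid and carotenoid synthesis followed chlorophyll. Of 10 compared genes 8 were lower and 0 higher, with a median of -1.61 and the lowest at -2.06. DXS1, which begins the plastid isoprenoid pathway, stood at 47.1 and 12.9 FPKM, DXR1, the second step, at 39.1 and 18.1, and HDS1 at 22.9 and 5.92. PSY1, phytoene synthase, the first step towards carotenoids, stood at 18.4 and 4.45, and the desaturases PDS1 and ZDS1 at 8.18 and 2.13, and at 11.2 and 3.52. Lower genes thus came both from the shared isoprenoid steps and from the carotenoid branch. SPS1 alone lay above the median gene, at 11.9 and 19.4 FPKM. ZEP1, the zeaxanthin epoxidase of the photoprotection list, stood at 12.4 and 3.55 FPKM.

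**Figure D2:**
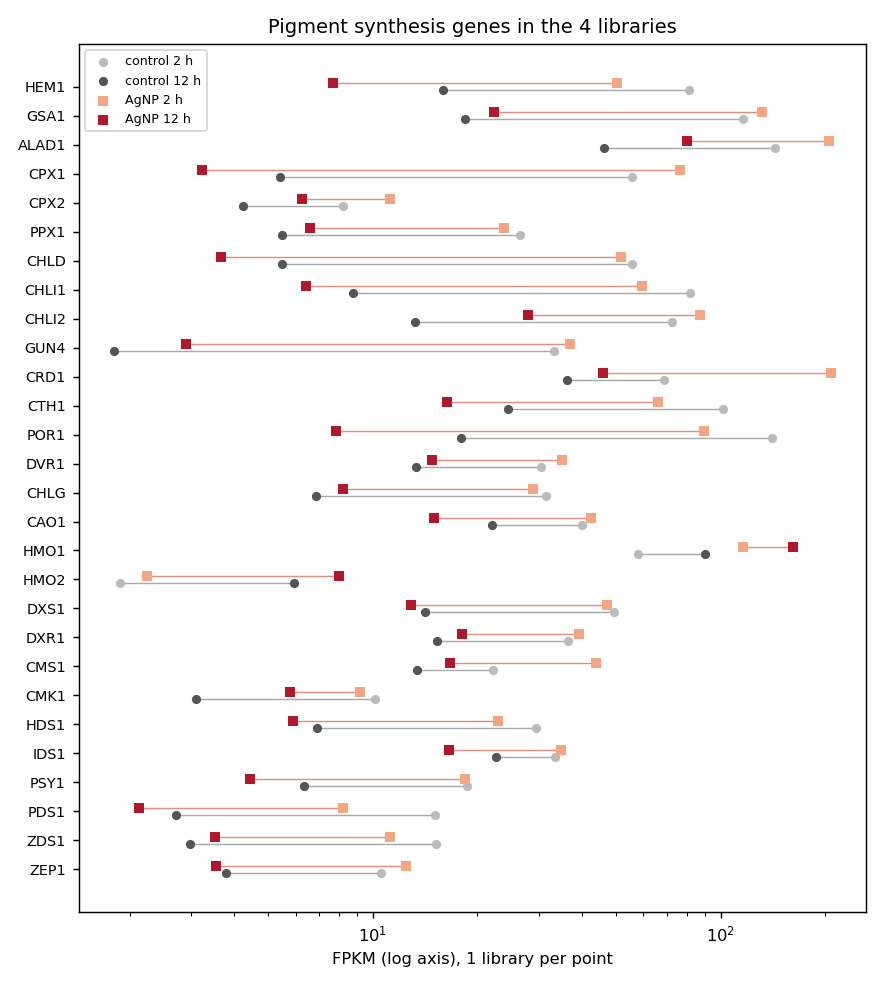
FPKM (log axis) of tetrapyrrole, chlorophyll and carotenoid synthesis genes in pathway order, 1 point per library, control pairs in grey and exposed pairs in red. In every gene drawn except HMO1 and HMO2 the 12 h point lies left of the 2 h point in both pairs. Not every compared gene was drawn: UPM1 and SPS1, left out, had the higher value at 12 h with AgNPs.

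Some factors that place pigment proteins in the thylakoid membrane were lower too. ALB3, the insertase for antenna proteins, stood at 27.7 FPKM at 2 h and 4.68 at 12 h. FTSY, the receptor of the plastid signal recognition particle, stood at 9.19 and 1.29, and SRP54 at 7.85 and 3.09. ALB3, FTSY and SRP54 were under 5 FPKM at 12 h and entered through the 2 h library, which fixed their direction. In the whole list of thylakoid and complex assembly factors 8 of 22 were lower (4 with a pseudocount of 5) and 2 higher. The higher ones were TEF13 (3.50 and 26.1) and, named after its values were seen, TEF11 (40.3 and 98.6). TEF13 was under 5 FPKM at 2 h and entered through the 12 h library, which fixed its direction. TAB2 and TBC2, which act in translation of plastid photosystem messages, stood at 9.19 and 1.09 FPKM and at 9.60 and 1.94. Both were under 5 FPKM at 12 h, so their direction was fixed as well.

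Lists for other plastid functions also lay below the median gene. Their medians were -0.57 for transcript and translation factors and -1.08 for photoprotection. The protein import list, which holds plastid and mitochondrial genes, had a median of -0.65. With a filter at a mean of 20 FPKM, which left 7 of its genes, that median was 0.06. The list of thylakoid and complex assembly factors had a median of -0.68, and the magnesium branch one of -2.27. Of 20 genes for plastid transcript handling, translation and proteolysis 5 were lower. Among them were the elongation factor genes EFG1 (138 FPKM at 2 h and 69.3 at 12 h) and EFG2 (88.7 and 47.5). Higher were 2, the protease gene DEG11 (4.87 and 17.9) and EFG6 (3.64 and 10.2). Both were under 5 FPKM at 2 h and entered through the 12 h library, which fixed their direction. Of 18 protein import genes 3 were lower, a share near the 12.0% of all compared genes, and 0 higher. TIC110 of the inner envelope translocon stood at 13.0 and 4.25 FPKM, and TOC34, a receptor of the outer one, at 16.4 and 6.78. TOM7, of the mitochondrial outer membrane, stood at 498 and 795, above the median gene. In the photoprotection list 2 of 4 were lower, ZEP1 and the early light-induced protein gene ELI4 (16.5 and 7.40 FPKM).

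The structural genes of the photosynthetic machinery differed much less than the pigment enzymes. In the photosystem II antenna 5 of 11 genes were lower, with a median of -0.87: LHCBM4 stood at 449.9 and 148 FPKM and LHCBM8 at 129.9 and 45.7, while LHCBM1, the most abundant, stood at 9218 and 12359. LHCBM9 alone was higher, at 6.48 FPKM at 2 h and 28.6 at 12 h. LHCBM genes are close copies, and reads shared between them cannot be separated here. In the photosystem I antenna none of 9 genes reached 2-fold and the median was 0.02. Of 29 nuclear genes for photosystem, cytochrome b6f and plastid ATP synthase subunits 3 were lower, PSBP6, PSBY2 and PSBP4, and the median was -0.21. Of 35 plastid ribosomal protein genes 34 lay below the median gene, 5 of them by 2-fold or more, for example PRPS5 (55.3 and 16.3 FPKM), and PSRP1 was higher (103 and 299). That count of lower genes is near the 12.0% of all compared genes as it stands and was 12 with the trend of ratios with gene span, introns included, removed by lowess.

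Carbon and lipid metabolism lay low in part. Of 20 Calvin-Benson cycle genes 9 were lower and 2 higher. PGK1, phosphoglycerate kinase, stood at 173 FPKM at 2 h and 59.6 at 12 h, rubisco activase (RCA1) at 265 and 117, and phosphoribulokinase (PRK1) at 463 and 221. These 3 act in carbon fixation or in the renewal of its acceptor. Of the rubisco small subunit genes RBCS1 was lower and RBCS2 lay above the median gene, RBCS1 at 821 and 432 FPKM and RBCS2 at 16155 and 26431. GAP1, a glyceraldehyde 3-phosphate dehydrogenase gene, was the fourth highest gene with a symbol, at 12.9 FPKM at 2 h and 91.6 at 12 h, whereas GAP3, another member of that family, stood at 1464 and 1022. Fatty acid and membrane lipid synthesis had 7 of 13 genes lower and 0 higher. Lower genes came from several lipid classes. Among them were the desaturases FAD3 (10.3 and 2.37 FPKM) and FAD7 (18.9 and 5.68), BTA1 of betaine lipid synthesis (19.4 and 5.23) and SQD1 of sulfolipid synthesis (45.3 and 19.0). In glycolysis 5 of 17 genes were lower, a count of 2 with a pseudocount of 5 or the span trend removed. The 3 pyruvate kinase genes compared were lower (PYK1 23.6 and 9.24, PYK2 10.5 and 4.15, PYK5 13.5 and 4.01 FPKM). Of 7 genes for acetate use and gluconeogenesis 2 were lower, a count of 0 with the trend with gene span removed, and isocitrate lyase (ICL1) stood at 1445 and 1863 FPKM.

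Inorganic carbon uptake lay near the median gene. Of 16 genes of the carbon-concentrating mechanism and carbonic anhydrases 4 were lower and 0 higher, with a median of -0.19. The thylakoid carbonic anhydrase gene CAH3 stood at 37.7 FPKM at 2 h and 16.4 at 12 h, CAH8 at 12.5 and 4.42, and LCIC, a partner of LCIB in carbon retention, at 13.2 and 6.79. LCIB itself stayed under 2-fold, at 15.8 and 10.5. In photorespiration and in starch metabolism the shares lower were near the 12.0% of all compared genes, and both counts were 0 with the trend with gene span removed. In photorespiration these were 2 of 12, the glycine decarboxylase subunit gene GCSP (27.7 and 12.6 FPKM) and the glycolate dehydrogenase gene GYD1 (13.1 and 5.91). In starch metabolism they were 2 of 12, the branching enzyme gene SBE3 (16.6 and 6.36 FPKM) and the starch synthase gene SSS3 (6.77 and 3.40).

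Respiration genes lay somewhat above the median gene, and few reached 2-fold. Of 78 genes for the mitochondrial respiratory chain and ATP synthase 12 were higher, a share near the 11.6% of all compared genes, and 0 lower, with 55 above the median gene and a list median of 0.45. The count depends on the scaling, with 4 higher and 2 lower after scaling to equal sums and 27 higher without centring, and it was 3 with the level trend removed. ATP9B, for the ring subunit of ATP synthase, stood at 307 FPKM at 2 h and 968 at 12 h, ASA5, an algal ATP synthase subunit, at 357 and 1077, and SDH3 of succinate dehydrogenase at 162 and 411. ATP15 and ASA8, also of ATP synthase, stood at 796 and 2223 FPKM and at 1053 and 2954. Subunits of ATP synthase were thus 4 of the 5 highest of the list, beside NUOP1 of complex I (200.4 and 522). AOX1, an alternative oxidase gene outside this list, stood at 2.78 and 8.56 FPKM. It entered through the 12 h library, which fixed its direction. Ratios also moved with gene span (introns included) over all compared genes. The eighth with the shortest span, up to 1760.0 bp, had a median of 0.52 and the eighth with the longest, from 5684 bp, a median of -0.55. With the trend removed by lowess, 3 of the 78 respiration genes were higher and the list median was 0.22, while the magnesium branch kept a median of -2.10. The part of span in these differences was not tested further.

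**Figure D3:**
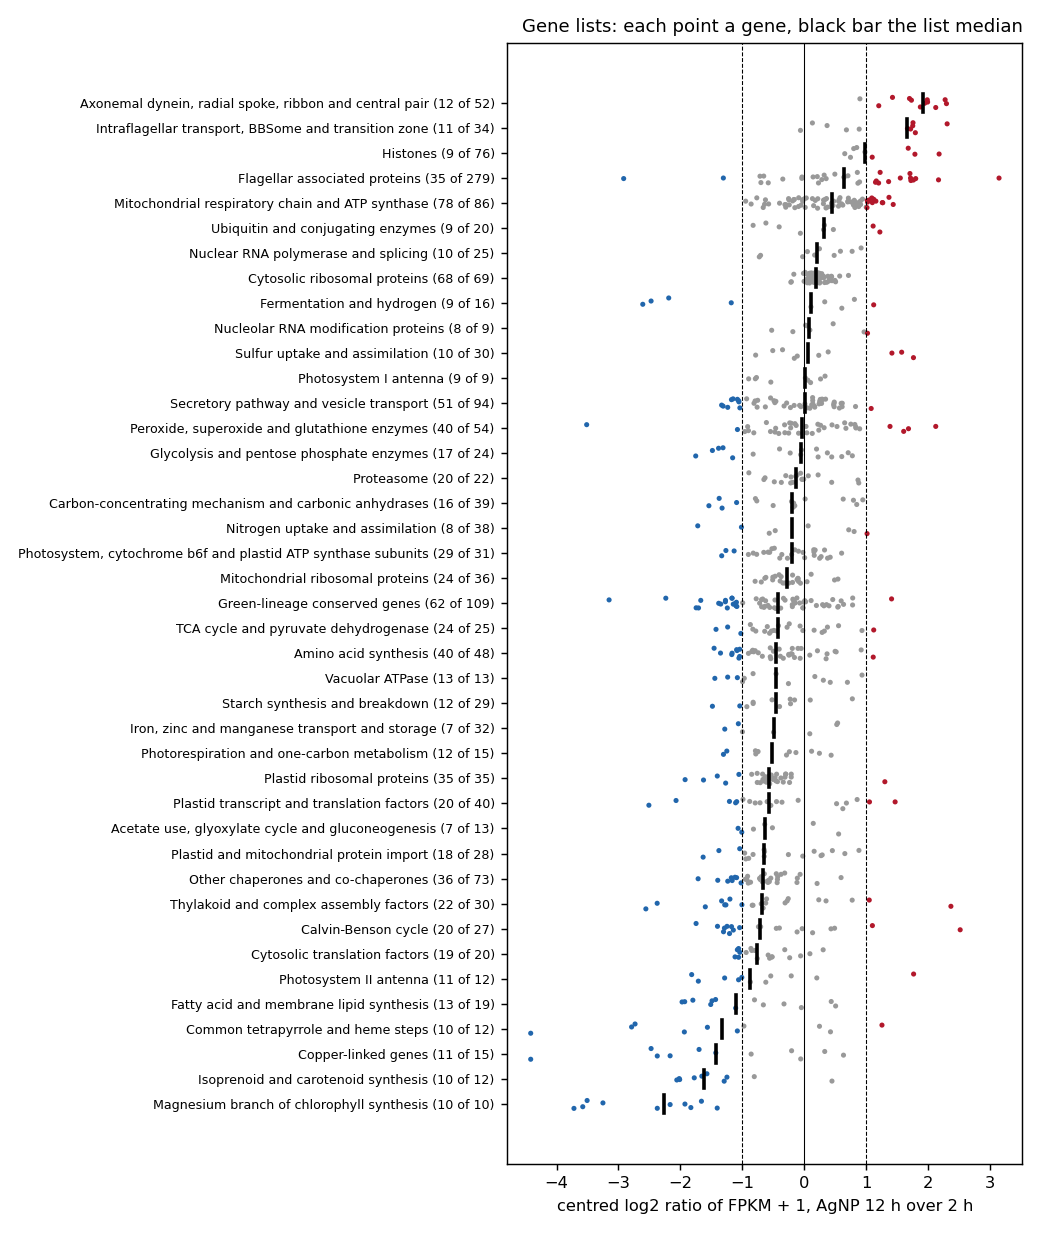
Centred log2 ratio of FPKM + 1, 12 h over 2 h with AgNPs, for each compared gene of the lists with at least 7 compared members, with numbers compared and in the tables in brackets. Points past 2-fold (dashed lines) are red or blue and black bars are medians, which run from -2.27 for the magnesium branch to 1.91 for axonemal genes.

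Cilia genes were higher at 12 h as a group. Over 4 lists, 62 of 372 members in the tables were compared, since most lie at low levels. Of these 32 were higher, against 11.6% of all compared genes, and 2 lower, and the median was 1.05, against 0.41 for the same genes in untreated cells. Of the 4 the axoneme list was the most uniform: 11 of 12 genes were higher and all lay above the median gene. ODA14, of the docking complex of outer dynein arms, stood at 3.90 FPKM at 2 h and 27.0 at 12 h. IDA4, for the p28 light chain of inner arms, stood at 4.78 and 31.6, and ODA12, an outer arm light chain, at 2.23 and 13.5. Radial spoke genes did the same, with RSP9 at 6.61 and 31.5 FPKM, RSP11 at 3.46 and 19.6 and RSP4 at 3.02 and 11.6. For 9 of the 12 the 2 h value was under 5 FPKM, so that they entered through the 12 h library and had to have the higher value there. Over all 4 lists this held for 16 of the 32 higher genes. The filter did not use the controls, so the medians of 1.05 and 0.41 are not set on equal terms. Without the filter the exposed medians were 0.75 for the axoneme, 0.35 for intraflagellar transport, 0.42 for flagellar associated proteins and 0.99 for tubulins. With a mean of at least 20 FPKM no axoneme gene remained. The medians of the other lists were then 1.48, 0.11 and 0.66, in the same order.

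Of 11 compared genes of intraflagellar transport and the transition zone 6 were higher and none lower. IFT20, IFT25, IFT27 and IFT43, subunits of the transport trains, stood at 14.3, 4.97, 11.3 and 1.49 FPKM at 2 h and at 57.5, 33.4, 44.4 and 8.75 at 12 h. FLA14, for the dynein light chain LC8, was the most abundant of the list, at 148 and 599. The small GTPase genes of this list, ARL1, ARL2, ARL3, ARL6 and ARL8, of which some act elsewhere in the cell, all stayed under 2-fold. Tubulins lay between: alpha-tubulin TUA1 stood at 12.9 and 33.9 FPKM and TUA2 at 14.8 and 30.3, beta-tubulin TUB1 at 6.21 and 15.9 and TUB2 at 15.7 and 34.5, with 2 of 4 at 2-fold, a count of 0 with a pseudocount of 5, equal sums, upper quartile scaling or the span trend removed. These tubulin genes are near-identical copies, and the authors' counting may have split reads between them.

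Flagellar associated protein genes were mixed, with 13 of 35 higher, 2 lower and a median of 0.64. FAP291 (Cre08.g367550, chromosome 8, 1950529 to 1952701) was the highest of all genes with a symbol, at 3.90 FPKM at 2 h and 49.4 at 12 h. FAP140 stood at 1.43 and 11.7 and FAP126 at 5.17 and 24.0. FAP269 went the other way, at 38.0 and 5.04, and so did AGG3, known from the phototaxis of this alga and named after its values were seen, at 16.3 and 7.14. The list also held 244 genes under the level filter, of which 193 had the higher value at 12 h and 48 at 2 h, uncentred, and in the axoneme list the counts were 35 and 5 of 40. Over all 12111 genes under the filter and above 0 in either library, 46.8% had the higher value at 12 h. Among these low genes, named after their values were seen, were the ribbon protein genes RIB43 (0.749 and 8.93 FPKM) and RIB72 (0.836 and 6.12), and the transport genes IFT57 (1.07 and 7.32) and IFT52 (1.44 and 5.64).

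**Figure D4:**
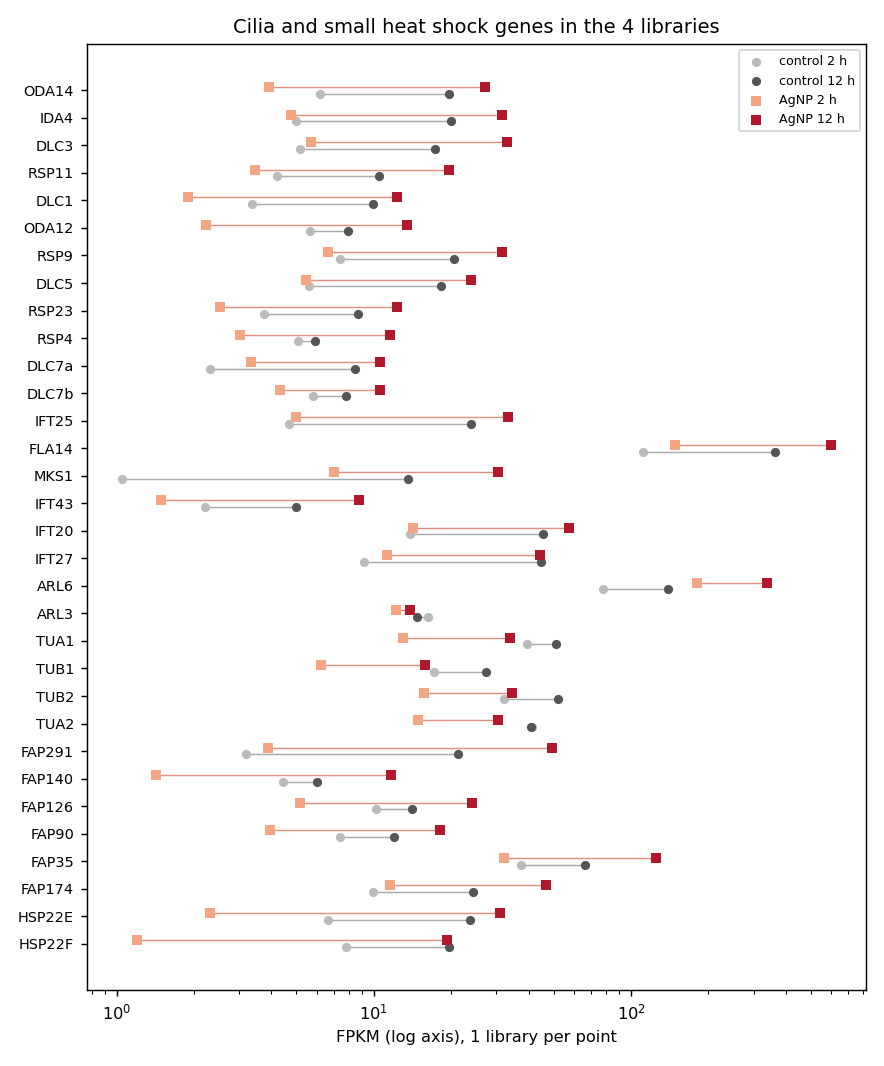
FPKM (log axis) of axonemal, intraflagellar transport, tubulin, 6 FAP and 2 small heat shock genes, 1 point per library, control pairs in grey and exposed pairs in red. In the exposed pair every gene drawn has its 12 h point to the right. For most axonemal and FAP genes drawn the red 2 h point lies left of the grey 2 h point. The 6 FAP genes are a choice from 35 compared, of which 13 were higher and 2 lower. The lower ones, FAP269 and AGG3, were not drawn, and ARL1, ARL2 and ARL8 were left out too.

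Both small heat shock genes compared were under 5 FPKM at 2 h, so that they entered through the 12 h library and had to have the higher value there. HSP22E and HSP22F, which encode plastid small heat shock proteins and lie side by side on chromosome 14 (1398588 to 1400061 and 1396617 to 1398388), stood at 2.31 and 1.197 FPKM at 2 h and at 31.0 and 19.2 at 12 h. ODA14, another of the 15 highest genes with a symbol, lies on the same stretch, at 1403594 to 1405257. In untreated cells HSP22E stood at 6.66 and 23.7 FPKM and HSP22F at 7.79 and 19.6, so that at 12 h exposed and untreated cells were close and at 2 h the exposed library was the lower. The other 5 HSP22 genes were under 1 FPKM in both exposed libraries. Of 36 other chaperone genes 8 were lower, none was higher and 34 lay below the median gene. HSP70C stood at 15.1 and 4.73 FPKM, the plastid HSP70B at 32.0 and 15.4, the endoplasmic reticulum HSP90B at 9.21 and 3.52, and CPN60B1 of the plastid chaperonin at 13.9 and 7.001. With the span trend removed 3 of these 36 were lower, and with a pseudocount of 5 2 were.

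Redox genes lay on both sides, with 4 of 40 higher, 2 lower and a median of -0.03. Both shares were below those of all compared genes, 11.6% and 12.0%. PRX6, a peroxiredoxin gene, was among the lowest of all genes, at 108 FPKM at 2 h and 10.2 at 12 h, and the iron superoxide dismutase gene FSD1 stood at 73.2 and 39.9. Higher were the nucleoredoxin genes NRX2 (14.8 and 79.3 FPKM) and NRX3 (11.0 and 41.7), the glutathione S-transferase gene GST2 (21.1 and 81.5) and the ascorbate peroxidase gene APX1 (20.6 and 64.7). In the sulfur list 3 of 10 were higher: the sulfate transporter genes SLT2 (1.75 and 8.52 FPKM) and SLT3 (2.38 and 9.49), and SBD1 (2.84 and 14.2). All 3 were under 5 FPKM at 2 h and entered through the 12 h library, which fixed their direction, and 1 was at 2-fold with a pseudocount of 5. Both autophagy genes compared were higher, APG8 at 36.3 and 114 FPKM and APG3 at 8.51 and 24.6.

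Copper-linked genes were lower at 12 h in part. Of 11 compared genes 6 were lower, with a list median of -1.43. Besides CPX1, CRD1 and CTH1 of tetrapyrrole synthesis these were FDX5, a ferredoxin gene (1199 FPKM at 2 h and 251 at 12 h), and the copper transporter genes CTR2 (14.6 and 4.61) and CTR3 (7.74 and 2.78). CTR1, under the filter and named after its values were seen, stood at 7.71 and 2.23 FPKM. The other 5 compared genes stayed under 2-fold. CYC6, for the cytochrome c6 that stands in for plastocyanin, stood at 339 and 380.3 FPKM against 0 and 0.236 in the controls, and plastocyanin itself (PCY1) at 10814 and 10938, while the copper chaperone gene ATX1 stood at 51.0 and 92.9. Without the level filter 7 of 15 copper-linked genes were lower and the median was -0.63. Other ferredoxin genes were lower too, FDX3 at 21.9 and 3.38 FPKM and FDX6 at 18.5 and 4.00. FDX3 (chromosome 6, 8338012 to 8339406) lies next to CHLI1 (8333800 to 8337913). The list of fermentation, hydrogen and ferredoxin genes was mixed, with 1 of 9 higher, 4 lower, all of them ferredoxins, and a median of 0.11. The hydrogenase gene HYDA1 stood at 12.8 and 19.2 FPKM. The 7 genes of that list under the filter had the higher value at 12 h, with a median of 0.197 FPKM at 2 h and 2.27 at 12 h. Over all genes under the filter and above 0 in either library, 46.8% had the higher value at 12 h.

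Genes for other nutrients were few at these levels. Of 7 compared genes for iron, zinc and manganese 2 were lower, both of iron uptake, a count of 0 with the span trend removed: the multicopper ferroxidase gene FOX1 stood at 9.32 FPKM at 2 h and 3.94 at 12 h, and FEA1 at 10.4 and 5.34. Ferritin (FER1) stood at 60.4 and 75.1. In nitrogen metabolism 2 of 8 were lower and 1 higher, the last being the glutamate dehydrogenase gene GDH2 (6.76 and 17.3 FPKM), while GSF1, for ferredoxin-dependent glutamate synthase, stood at 9.09 and 2.57. Of 5 phosphate genes 1 was lower, the transporter gene PTB4 (14.3 and 5.86 FPKM).

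Cell division genes were mostly too low to compare. Of 76 histone genes 9 were compared, 4 were higher and all lay above the median gene, with HTV1 at 1.96 FPKM at 2 h and 14.6 at 12 h. HTV1 was 1 of 2 compared histone genes under 5 FPKM at 2 h, which had to have the higher value at 12 h. Of the 67 under the filter 58 had the higher value at 12 h, with median levels of 0.188 and 0.914 FPKM. Over all genes under the filter and above 0 in either library the share was 46.8%. Histone genes are near-identical copies whose reads cannot be assigned with certainty. Of 6 compared genes for cell division and replication 2 were higher, 0 lower and 4 below the median gene, with a list median of -0.24. The higher ones were PCN1 and CKS1. PCN1, for the replication clamp PCNA, stood at 11.8 and 36.2 FPKM and CKS1, a subunit of cyclin-dependent kinases, at 5.35 and 22.7. Among gamete and zygote genes, which would mark another cell state, ZYS4 alone was compared (14.6 and 27.0 FPKM), and the other 10 had means of at most 1.64 FPKM. Cell wall genes were few as well: the pherophorin gene PHC15 stood at 137 and 442 FPKM and PHC3 at 58.4 and 21.7.

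Cytosolic ribosomal protein genes lay close to the median gene. None of 68 reached 2-fold, their ratios lay between -0.22 and 0.71, and they took 61.3% of the FPKM sum at 2 h and 61.1% at 12 h. Of 19 translation factor genes 5 were lower, among them EIF4G (15.5 and 8.24 FPKM), a count of 2 with the span trend removed and 0 with a pseudocount of 5. In the secretory pathway 9 of 51 were lower, among them SEC61A, the channel of the endoplasmic reticulum (41.6 and 19.0 FPKM), and the coat subunits COPB1 and COPG1, a count of 1 with the trend removed or a pseudocount of 5. In the ubiquitin list 2 of 9 were higher, SKP1 of ubiquitin ligases (74.2 and 203 FPKM) and the conjugating enzyme gene UBC2 (113 and 286), a count of 0 with the span or the level trend removed. Of 8 nucleolar RNA modification genes 1 was higher, and none of 10 genes for nuclear RNA polymerase and splicing and none of 5 prefoldin genes reached 2-fold. None of 20 proteasome genes and none of 24 mitochondrial ribosomal protein genes reached 2-fold.

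Genes without a symbol held the largest differences upward. Cre07.g343050 (chromosome 7, 4424365 to 4425551) stood at 2.33 FPKM at 2 h and 93.4 at 12 h, a centred log2 ratio of 4.60. Cre03.g176833 stood at 4.02 and 131, Cre09.g395213 at 1.82 and 65.1, and Cre05.g233751 at 1.29 and 50.0. All of these were under 5 FPKM at 2 h and entered through the 12 h library, which fixed their direction. Lowest among those without a symbol were Cre01.g050950 (77.9 and 4.91 FPKM), Cre12.g495952, Cre07.g346900 (53.3 and 5.26) and Cre16.g663900 (125 and 16.8). Cre01.g050950 and Cre12.g495952 were under 5 FPKM at 12 h and entered through the 2 h library. Cre12.g495952 was the only compared gene listed at 0 in either library, at 11.5 FPKM at 2 h and 0 at 12 h, and its locus overlaps another gene model.

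Most genes that stood at 2-fold between times with AgNPs did so in untreated cells too. Among the same 3411 genes, 441 were higher and 404 lower at 12 h in the controls (12.9% and 11.8%, 24.8% in all). Of the genes higher with AgNPs 255 were also higher without them, 64.6% of the first list and 57.8% of the second, and of those lower 279 were, 68.0% and 69.1%. No gene at 2-fold in one pair was at 2-fold the opposite way in the other. Across genes, which are not independent replicates, the 2 sets of ratios had a Pearson r of 0.82 and a Spearman rho of 0.85 (n = 3411). The pairs share no library, but they share gene models, and both follow span, with Spearman rho values of -0.39 with and -0.32 without AgNPs. The magnesium branch had medians of -2.27 with and -2.49 without AgNPs, isoprenoids -1.61 and -1.71, respiration 0.45 and 0.35, and lipid synthesis -1.11 and -1.04.

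The 2 time differences were at least 2-fold apart for 167 of 3411 genes (4.90%), 82 with the larger value in exposed cells (2.40%) and 85 with the smaller (2.49%). Without replicates these differences were not tested. Of the 10 genes with a symbol and the highest difference 5 belong to the cilia lists. HSP22E and HSP22F are among the others, and so is TCTEX1, a dynein light chain gene. The cilia lists held 62 of the 1185 compared genes with a symbol. FAP140, ODA12, HSP22E and HSP22F were under 5 FPKM at 2 h with AgNPs and passed the filter through the exposed 12 h library alone. The filter did not use the controls, so it favoured a high difference in such genes. FAP140 had a difference of 2.08 on the log2 scale: it stood at 4.44 and 6.01 FPKM in controls and at 1.43 and 11.7 with AgNPs. ODA12 (5.64 and 7.97 FPKM in controls) and FAP126 (10.2 and 14.1) differed in the same way, so that the exposed 2 h library held the lowest and the exposed 12 h library the highest of the 4 values. CCP2, a chloroplast envelope carrier gene of the carbon-concentrating list, stood at 6.21 and 1.56 FPKM in controls and at 5.65 and 5.88 with AgNPs. PHC15 stood at 60.9 and 75.2 FPKM in controls, under both exposed values.

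Downward, FDX5 differed most among genes with a symbol. It stood at 11.0 and 16.8 FPKM in controls and 1199 and 251 with AgNPs, a difference of -2.76. CRD1 (68.6 and 36.1 in controls) and CTR2 (1.81 and 1.39) also had the larger time difference with AgNPs, and the median difference of the copper list was -0.80, against 0.06 for the magnesium branch. SEC61A stood at 24.0 and 28.1 FPKM in controls and at 41.6 and 19.0 with AgNPs. Of the 10 genes with a symbol and the lowest difference 7 encode cytosolic ribosomal proteins, such as RPL37, at 12500.3 and 37773 FPKM in controls and 33486 and 38675 with AgNPs. Cytosolic ribosomal protein genes made up 68 of the 1185 compared genes with a symbol. As a list these had a median of 0.18 with and 0.98 without AgNPs, and the 2 h control was the lowest of the 4 libraries both for RPL37 and in its sum of FPKM, 492502 against 1143199 in the 12 h control and 1252796 and 1663726 in the exposed libraries. The part of that library's scaling in this difference was not tested.

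**Figure D5:**
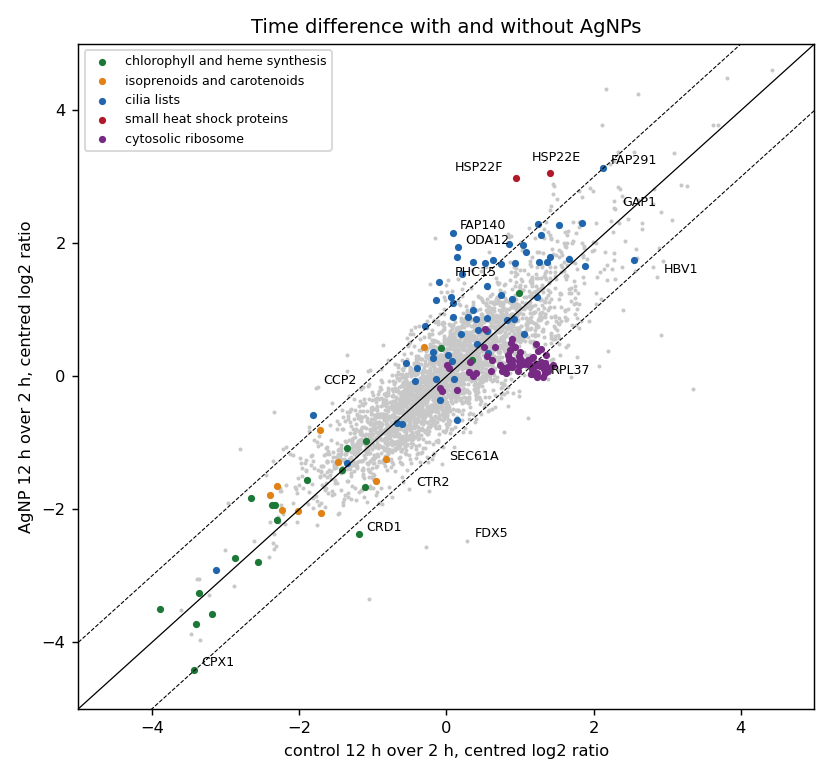
Centred log2 ratio of 12 h over 2 h with AgNPs against the same ratio in controls, each point 1 of 3411 genes, with equality as a solid line and 2-fold differences as dashed lines. Most genes lie along equality (Pearson r 0.82 across genes), cilia and HSP22 genes above it, and FDX5 and cytosolic ribosomal protein genes below.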

How the data were processed

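RNA was extracted with Trizol and libraries were made with an Illumina mRNA-Seq kit, per the labels' protocols. Cuffdiff is among the tools in the submitters' processing notes. Aligner, strand setting and library scaling were not given in the sources used here. Per the file headers the authors deposited 1 FPKM value per gene and library, with identifiers of annotation v5.5. Of 17741 identifiers 17738 matched a RefSeq gene of assembly Chlamydomonas_reinhardtii_v5.5, and 17558 locus starts equalled the RefSeq start once 1 was added, so positions are given 1-based. Symbols come from the deposited tables, and 2 that look like converted dates were treated as missing. Without strand, reads of the 55 compared genes that overlap another gene model cannot be assigned with certainty.

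The tables were joined on identifier. Genes averaging 5 FPKM or more in the exposed libraries were kept, log2 ratios of FPKM + 1 were centred on the median gene, and 2-fold was the threshold. No test or interval was possible with 1 library per group and no counts. Gene lists were matched by symbol: 48 lists, of which the one for tRNA synthetases matched no gene, and 5 more written after the symbols were seen. The compared genes and the lists were chosen with earlier results of these data known. Genes named are the 15 highest and 15 lowest with a symbol, members of lists with at most 20 compared genes, up to 6 members of longer lists with the largest ratio either way, the 10 highest and 10 lowest differences from the controls, and 4 without a symbol at either end; any other is said to be chosen after its values were seen. Alternatives varied the pseudocount, filter, scaling, threshold, and trends with gene span and level. The code was tested on simulated data. Tools were Python 3.11.15, numpy 2.4.6, pandas 2.3.3, scipy 1.17.1 and statsmodels 0.14.6.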

Additional observations from a re-analysis of the deposited data

Results flagged for a closer look

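FDX5 (Cre17.g700950, chromosome 17, 704737 to 706717) was lower at 12 h in exposed cells and slightly above the median gene in untreated cells. With AgNPs it stood at 1199 FPKM at 2 h and 251 at 12 h, and in controls at 11.0 and 16.8. The control difference stayed under 2-fold. The sums of FPKM in the controls, 492502 at 2 h and 1143199 at 12 h, lay further apart than that. The direction in controls may thus depend on the scaling, which was not varied for that pair. The exposed time ratio minus the control time ratio was -2.76 on the log2 scale. The difference was not tested, since each ratio rests on 1 pair of libraries. Both exposed values lay above both control values.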

How the results depend on the processing

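No paired analysis was possible because the comparison of exposed cells holds 1 library at each time and the labels give no replicate numbers to pair. A fit of time over all 4 libraries, with exposure as an additive term, was not run. With 395 genes higher and 410 lower as reported, a pseudocount of 5 gave 205 lower. Dropping the filter on low values gave 966 higher, and a mean of at least 20 FPKM gave 135 higher and 203 lower. Without centring 597 were higher and 253 lower, the median gene lying 0.22 above 0. A threshold of 1.5-fold gave 807 and 829, and one of 4-fold 82 and 39. A pseudocount of 0.1 (432 and 476), equal sums (299 and 538, median gene at -0.16), upper quartile scaling (323 and 485), removal of the trend with span (360 and 290) or with level (387 and 375) and, chosen after seeing the data, leaving out overlapping gene models (391 and 402) kept the counts within 1.5 times. Reversal was looked for only among genes named by rule and lists with 3 or more compared members, and none past 2-fold reversed. The scalings moved the median gene by at most 0.22, far short of 2-fold, so a reversal could hardly occur and its absence says little. The cause of each shift beyond the construction of the alternative was not tested. Depth is unknown, and the ratios of low genes rest on few fragments. Exposure time, culture and library cannot be told apart, since each time point is 1 library.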

Other observations

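Some compared groups lay near the median gene or moved in part. Of 40 amino acid synthesis genes 9 were lower and 1 higher, with a median of -0.45, against 12.0% lower of all compared genes. The count lower was 3 with the span trend removed, 2 without centring and 2 with a pseudocount of 5. Of 13 vacuolar ATPase genes 3 were lower and 0 higher, with a median of -0.46, and 1 was lower with the span trend removed or a pseudocount of 5. Of 24 genes of the TCA cycle and pyruvate dehydrogenase 3 were lower and 1 higher, the share lower being near that of all compared genes. Of 62 genes conserved in the green lineage 17 were lower, among them CGL78 (149 FPKM at 2 h and 18.7 at 12 h), and 1 was higher. These lists were matched by symbol and give no more than their counts.

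Of 12 mitochondrial ribosomal protein genes under the level filter 0 had the higher value at 12 h, uncentred. Over all 12111 genes under the filter and above 0 in either library the share was 46.8%. The 24 compared genes of that list had a median of -0.28, and none reached 2-fold.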
